A study of Homo sapiens with 3 samples.

Results

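Endoderm and intestinal transcription factors are the DNA-binding proteins that give gut epithelium, liver and pancreas their gene programmes. The genes described here are HHEX, GATA4, GATA6, HNF4A, HNF4G, CDX2, FOXA2 and KLF5. They were followed in Caco-2 cells, an established human colorectal cancer line that can form a layer resembling small intestinal enterocytes, after depletion of the transcript OCC-1 (gene symbol C12orf75). Of the 8 genes, 7 were found in the array's probe-to-gene annotation, with 12 of the 49395 probe sets on each array. A probe set is a group of short oligonucleotides that read 1 gene, and those annotated with exactly 1 of these gene symbols were taken. HNF4A had no probe set under its symbol in the annotation used here and was not analysed here. The 8 genes were chosen by their role and with the intensity differences between each hairpin array and the control known, in which HHEX and GATA6 already stood apart. The values below therefore describe the arrays, and no test was made on them.

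Caco-2 cells had been transduced with lentivirus carrying a non-target short hairpin RNA, shCTRL, or 1 of 2 hairpins against OCC-1, shOCC-1-1 or shOCC-1-2. The culture with shOCC-1-1 is called line 1 and that with shOCC-1-2 line 2. All 3 cultures carried an integrated vector, were grown in 20% fetal bovine serum, went through 5 days of puromycin selection (1 µg per ml) and were kept for 24 h without the drug. Total RNA of each culture was read on 1 array, so no value has a replicate and none has a p-value. The control array is shared by both comparisons, and a deviation of that array would appear in each. Values are the deposited linear intensities, which can be compared between arrays for 1 probe set but not strictly between probe sets. The choice of a brightest probe set, the intensity filter, summed intensities and the background probe sets do set probe sets side by side. Those uses are rough for that reason.

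In the embryo these factors act in sequence and then hold the mature epithelium. FOXA2 is a forkhead protein that opens chromatin for others, and HHEX is a homeodomain protein of early endoderm, liver and thyroid that mostly represses its targets. GATA4 and GATA6 are zinc finger proteins that mark proximal and wider gut epithelium, HNF4A and HNF4G are nuclear receptors that drive enterocyte and lipid transport genes, CDX2 is the homeodomain protein that specifies intestine, and KLF5 is a zinc finger protein of dividing crypt cells.

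The knockdown was read first. C12orf75 read 1219 on the control array, against 518 (42.5%) with shOCC-1-1 and 397 (32.5%) with shOCC-1-2. The array medians lay between 182.5 and 185.5. A gene was counted as higher or lower when it differed from control by at least 1.5-fold in the same direction in both lines, and genes were read by their brightest probe set. Genes whose mean log2 intensity lay below the median of all probe sets (7.52, an intensity of 184) were left out, and 11329 genes passed this filter.

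HHEX and GATA6 stood above control in both lines, and the other genes with a probe set did not reach 1.5-fold in either. Of the 7 genes, 5 passed the intensity filter, and 2 of these 5 were higher and 0 lower in both lines. Over all 11329 genes, 1.36% passed as higher and 0.159% as lower, or 154 and 18 genes. When each gene was read by the mean of all its probe sets, the counts were 44 and 9 of 9481 genes, with HHEX and GATA6 still among the higher. Taken alone, line 1 had 1.93% of genes higher and 0.212% lower, and line 2 had 1.87% and 0.406%. At 2-fold, which HHEX also passed, the shares over all genes were 0.0706% higher and 0.0353% lower, and at 1.3-fold 5.31% and 0.936%. Because the 8 genes were picked with these differences known, nothing is read from the comparison of those shares. The median log2 difference of the 5 genes was 0.03 in line 1 and 0.04 in line 2, against -0.03 and -0.02 over all genes that passed.

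**Figure D1:**
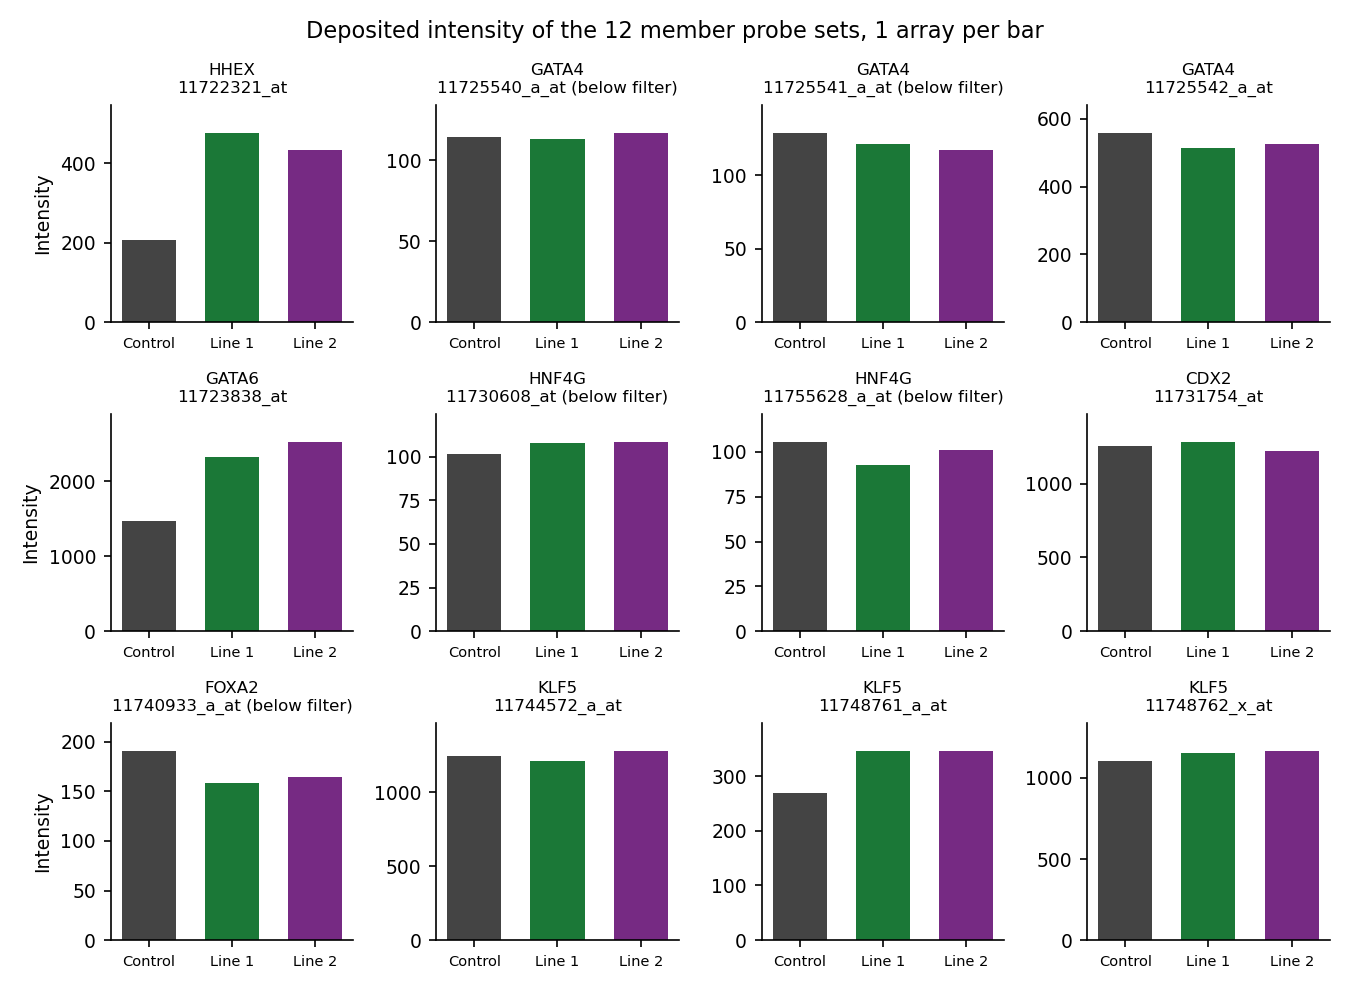
Deposited intensity (vertical axes from 0, linear, different in each panel) of the 12 probe sets of the 7 genes in the control, line 1 and line 2. Each bar is 1 array, so there are no error bars. HHEX stands at 206 in the control against 476 and 435, GATA6 at 1469 against 2323 and 2517, and the bars of CDX2 are nearly level at 1258, 1281 and 1223.

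HHEX had the widest difference of the 7 genes. It read 206 on the control array, 476 on that of line 1 and 435 on that of line 2. Both hairpin arrays were more than double the control, and they lay close to each other, with line 1 at 1.09 times line 2. The fold difference from control was 2.31 in line 1 and 2.11 in line 2, or 1.20 and 1.07 on the log2 scale. Among the 11329 genes HHEX held rank 1 from the top in line 1 and rank 6 in line 2. It was read by 1 probe set (11722321_at), so no second set of oligonucleotides checks the value. The control value of 206 was itself above 184, so HHEX did not pass the filter through the hairpin arrays alone. That filter is not a detection limit. On the control array the background control probe set with 17 G and C bases, described below, read 205.7.

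GATA6 was the other gene past the threshold. It read 1469 on the control array, 2323 on that of line 1 and 2517 on that of line 2. Here line 2 was the higher of the hairpin arrays, whereas line 1 was for HHEX. The fold difference was 1.58 in line 1 and 1.71 in line 2, or 0.66 and 0.78 on the log2 scale. GATA6 held rank 131 in line 1 and rank 50 in line 2. It too was read by 1 probe set (11723838_at).

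HHEX and GATA6 are the pair of genes that stood high together, and the DNA just before their start sites is shown for that reason, beside that of CDX2, which stayed level. The sequences are the 250 bases upstream of the annotated start, on the strand of the gene, from the RefSeq table for GRCh38.p14. This table held such a window for 5 of the 8 genes. Capitals mark every match, on either strand, to 9 short patterns, and overlapping matches merge into 1 run.
HHEX, chr10:92689705-92689954, plus strand: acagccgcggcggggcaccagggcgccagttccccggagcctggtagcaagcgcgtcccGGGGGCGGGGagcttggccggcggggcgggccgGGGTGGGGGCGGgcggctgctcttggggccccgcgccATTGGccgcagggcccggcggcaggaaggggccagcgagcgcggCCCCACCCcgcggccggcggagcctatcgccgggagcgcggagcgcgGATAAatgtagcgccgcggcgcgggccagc
GATA6, chr18:22169339-22169588, plus strand: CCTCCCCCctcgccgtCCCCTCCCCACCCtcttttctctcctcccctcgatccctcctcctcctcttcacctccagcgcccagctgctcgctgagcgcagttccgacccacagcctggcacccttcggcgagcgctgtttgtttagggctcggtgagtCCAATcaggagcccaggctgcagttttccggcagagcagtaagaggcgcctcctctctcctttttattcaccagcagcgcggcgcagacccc
CDX2, chr13:27969316-27969565, minus strand: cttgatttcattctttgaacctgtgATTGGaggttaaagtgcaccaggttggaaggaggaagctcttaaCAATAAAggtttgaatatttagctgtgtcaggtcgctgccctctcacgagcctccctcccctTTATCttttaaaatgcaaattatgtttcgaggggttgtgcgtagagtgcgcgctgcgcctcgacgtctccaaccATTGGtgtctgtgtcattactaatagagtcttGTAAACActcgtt

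The patterns were searched on both strands, and the share of 35116 promoter windows of the same length that hold each one is given beside it. The GATA pattern GATAA was in 20.4% of windows. It occurred once upstream of HHEX, at positions -30 to -26 counted from the start site, and once upstream of CDX2, at -119 to -115. It was not found upstream of GATA6. The KLF pattern CCNCNCCC was in 53.4% of windows, with 5 overlapping or separate matches upstream of HHEX, 3 upstream of GATA6 and none upstream of CDX2. A window upstream of KLF5, whose brightest probe set stayed near control, also held 3, so such matches were not particular to the higher genes.

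The CCAAT box was in 32.0% of all windows. It occurred in each of the 3 sequences, at -121 to -117 in HHEX, -92 to -88 in GATA6, and -225 to -221 and -45 to -41 in CDX2. Of the 3 sequences, only that of CDX2 held the CDX pattern TTTATNG (8.93% of windows) and the FOXA pattern TGTTTAC (2.98%). Each occurred once, at -181 to -175 and -13 to -7. A KLF5 window not printed here also held the CDX pattern, at -195 to -189. The HNF4 pattern CAAAGNNCA (4.44%), the HHEX pattern CAATTAA (2.1%), the E-box CACGTG (6.34%) and the TATA box TATAAA (10.7%) had no match in the 3 windows. The HHEX window was also rich in G and C, at 81.2% of bases, against 64.4% for GATA6, 45.2% for CDX2 and a median of 58% over all windows. For KLF5 the window with the KLF matches held 70.8% and another held 40.8%. A match of such letters is a description of the sequence and not evidence that the factor binds there.

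GATA4, the close relative of GATA6, did not follow it. Its brightest probe set (11725542_a_at) read 558 in the control and 514 and 525 in lines 1 and 2. Both hairpin arrays lay slightly below the control, at 92.1% and 94.1%. The other 2 GATA4 probe sets were below the intensity filter. One (11725541_a_at) read 128.5, 121.1 and 117.3, also lowest in the hairpin arrays, and the other (11725540_a_at) read 114.4, 113.2 and 116.6, with the control in the middle.

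The remaining GATA genes gave the same picture of small differences. GATA1, GATA2, GATA3 and GATA5 all passed the filter, and their log2 differences from control ran from -0.20 to -0.06 in line 1 and from -0.30 to 0.04 in line 2. GATA6 was thus the 1 gene past 1.5-fold among the 6 GATA genes read. These 4 genes are all the GATA relatives listed, and they were added after their values were seen. Related genes can share stretches of sequence, and whether a probe set reads a relative as well was not tested.

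CDX2, the intestinal identity factor, was level. Its probe set (11731754_at) read 1258 in the control and 1281 and 1223 in lines 1 and 2. The control lay between the hairpin arrays, which were at 101.9% and 97.3% of it. The log2 differences, 0.03 and -0.04, were smaller than the SD of 0.11 by which lines 1 and 2 differed from each other over all genes. Its relative CDX1 was level too, at 215.0, 205.2 and 213.8.

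KLF5 was read by 3 probe sets that disagreed in part. The brightest (11744572_a_at) read 1243 in the control and 1211 and 1279 in lines 1 and 2, with the control in the middle. A second (11748762_x_at) read 1103, 1156 and 1164, or 104.7% and 105.5% of control. The last (11748761_a_at) read 269, 345 and 345, or 128.4% and 128.5% of control, with the hairpin arrays almost equal. This one and the _x_at set were designed on the same transcript record. The ending _x_at marks a probe set whose oligonucleotides may also match other transcripts. No KLF5 probe set reached 1.5-fold. The 5 listed relatives KLF3, KLF4, KLF6, KLF10 and KLF11 all passed the filter, with log2 differences from -0.12 to 0.71 in line 1 and from -0.07 to 0.73 in line 2. The highest in both lines was KLF10, which passed 1.5-fold and is described among the relatives.

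FOXA2 lay just below the filter, with a mean log2 intensity of 7.41. Its probe set (11740933_a_at) read 190.4 in the control against 158.4 and 164.3 in lines 1 and 2, so that both hairpin arrays were lower, at 83.2% and 86.3% of control. The log2 differences were -0.27 and -0.21. The relatives FOXA1 and FOXA3 passed the filter and were not lower: FOXA1 read 3091, 3678 and 3619, and FOXA3 read 368, 419 and 368.

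HNF4G was dim on all arrays, and its 2 probe sets went different ways. One (11730608_at) read 101.3 in the control and 108.1 and 108.3 in the hairpin lines, slightly above control. The other (11755628_a_at) read 105.4, 92.7 and 101.4, with the control highest. Neither passed the filter, so the arrays give no usable direction for this receptor.

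**Figure D2:**
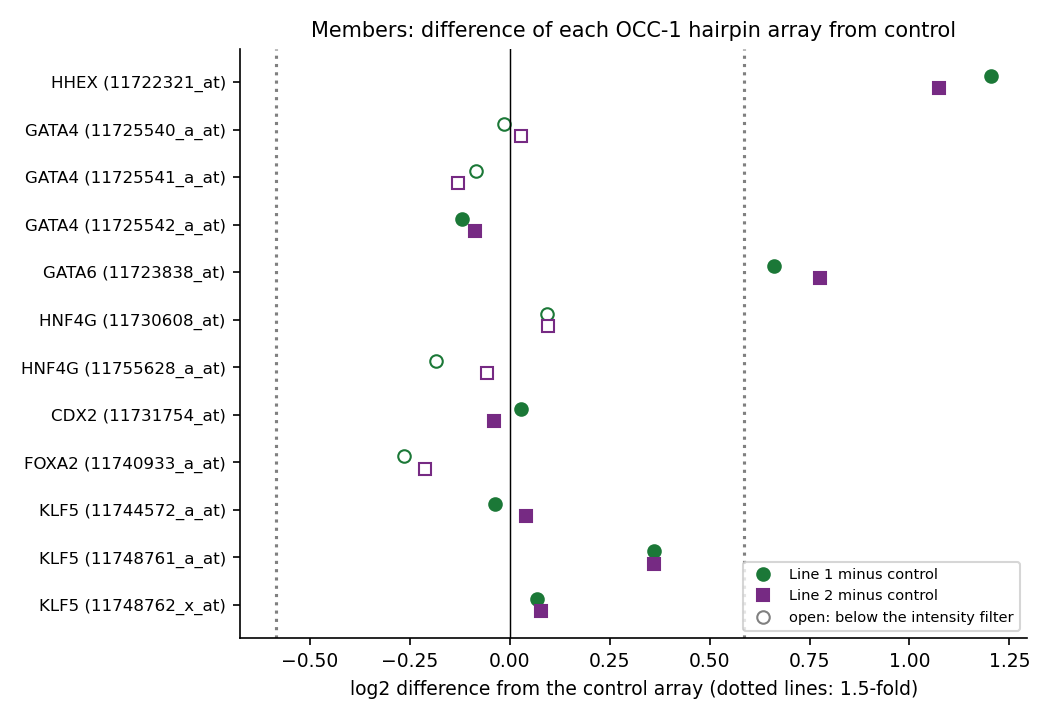
Log2 difference from the control array (horizontal axis) for each of the 12 probe sets, with line 1 as circles and line 2 as squares, open where the probe set lies below the intensity filter. HHEX (1.20 and 1.07) and GATA6 (0.66 and 0.78) lie beyond the dotted 1.5-fold lines, and the other 10 probe sets lie between -0.27 and 0.36.

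Apart from HHEX and GATA6, the 10 probe sets of the other 5 genes lay between 83.2% and 128.4% of control in line 1 and between 86.3% and 128.5% in line 2. Over all 12, 5 were above control in both lines, 4 below in both, and 3 on opposite sides. Lines 1 and 2 were never more than 0.13 apart on the log2 scale, and this widest gap belonged to HHEX. Over all genes, 0.00883% were at least 1.5-fold apart between lines 1 and 2. The arrays read RNA from whole cultures, so more transcript per cell and more cells that express a gene cannot be told apart.

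**Figure D3:**
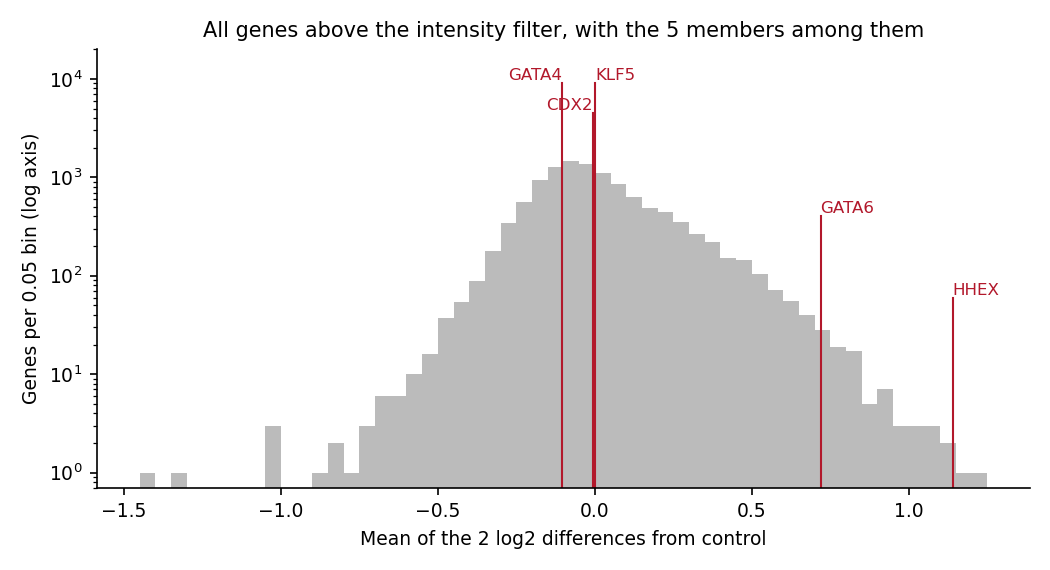
Number of genes (vertical log axis) by the mean of the 2 log2 differences from control (horizontal axis, bins of 0.05) for the 11329 genes above the filter, with the 5 genes of interest among them marked by lines whose height has no meaning. GATA4, CDX2 and KLF5 sit in the bulk near 0, and GATA6 and HHEX lie in the right tail.

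The genes whose pair of differences lay nearest to those of HHEX and GATA6 were found by Euclidean distance over the 2 log2 differences, from 3 arrays. For HHEX they were the thiamine transporter SLC19A2 (2.19-fold and 2.07-fold), the receptor phosphatase PTPRF (2.17-fold and 2.19-fold) and the lipid hydrolase ABHD3 (2.10-fold and 2.17-fold), at distances of 0.08, 0.11 and 0.14. For GATA6 they were the lipid kinase PIK3C2A (1.57-fold and 1.69-fold), the vesicle protein SYPL1 (1.61-fold and 1.72-fold) and DOCK1, an activator of RAC (1.62-fold and 1.70-fold), at distances of 0.02, 0.03 and 0.03. None is a transcription factor. With 3 arrays many genes lie close together, and nearness is a description only.

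The lists that follow were compiled with earlier results of these arrays known, and their counts are read only beside the shares over all genes given above. Other regulators of gut and liver identity were taken as a list of 44 relatives and neighbours in the pathway. Of these, 26 passed the filter, and 2 were higher, 0 lower and 24 neither. KLF10, a Krüppel-like repressor induced by TGF-beta, read 308 in the control and 505 and 511 in lines 1 and 2. That is 1.64-fold and 1.66-fold, and a second KLF10 probe set gave 0.75 and 0.73 on the log2 scale. TCF7L2, the DNA-binding partner of beta-catenin in Wnt signalling, read 946, 1551 and 1482, or 1.64-fold and 1.57-fold. Its 4 other probe sets above the filter had a median log2 difference of only 0.18 and 0.11. The median of the 26 genes was -0.09 in line 1 and -0.02 in line 2.

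Cofactors and binding partners differed in both directions by less than the threshold. The coactivator NCOA1 was at 121.9% and 123.8% of control, the acetyltransferase EP300 at 133.8% and 121.8%, and the corepressor TLE3, of the family that HHEX binds, at 83.9% and 87.1%. The 5 other NCOA1 probe sets above the filter had a median log2 difference of only 0.04 and 0.10. A second TLE3 probe set gave -0.06 and -0.16. Of 21 listed, 15 passed the filter and 0 were higher or lower, which is no result about cofactors beside 1.36% and 0.159% of all genes. Their median log2 difference was -0.01 and -0.03.

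Genes known as targets of HHEX and GATA6 were counted next, beside the 1.36% higher and 0.159% lower of all genes. At those shares few or no calls would be met in lists this short. The lists were also compiled with earlier results known, so nothing particular to the targets is read from their counts. Of 13 listed HHEX targets 6 passed the filter and 0 reached 1.5-fold in both lines, with medians of 0.03 and 0.00. Fibrinogen alpha (FGA) had log2 differences of -0.42 and -0.56, and a second FGA probe set gave -0.18 and -0.32. VEGFA was at 119.5% and 110.8% of control, while the 7 other VEGFA probe sets had a median of -0.08 and -0.03. Of 20 GATA4 and GATA6 targets 15 passed, 0 were higher and 1 was lower, with medians of -0.17 and -0.16, below the -0.03 and -0.02 of all genes. The lower one was the trefoil peptide gene TFF1, at 1170 in the control and 582 and 557 in lines 1 and 2.

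The targets of the level or dim factors gave 1 further call. Of 29 HNF4 targets 15 passed the filter and 1 was lower, the tetraspanin-like TM4SF4 at 347 in the control and 209 and 220 in lines 1 and 2 (medians 0.12 and -0.02). Of 22 CDX2 targets 18 passed and 0 reached the threshold, with medians of -0.11 and -0.07. The digestive enzyme genes LCT (lactase, 69.4% and 67.9% of control) and ALPI (alkaline phosphatase, 85.9% and 81.1%) were below control, and the brush border gene VIL1 above it (119.6% and 116.8%).

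For FOXA2, 9 of 16 listed targets passed and 0 reached the threshold in both lines (medians -0.05 and 0.02). The thyroid hormone carrier TTR was at 58.7% and 67.5% of control, past 1.5-fold in line 1 only, and E-cadherin (CDH1) was at 132.5% and 128.7%. For KLF5, 17 of 18 targets passed and 0 reached it (medians -0.08 and -0.11). MYC was at 142.6% and 145.6%, fatty acid synthase (FASN) at 76.3% and 75.1%, and the tight junction gene CLDN1 at 137.1% and 179.4%. The 3 other CLDN1 probe sets above the filter had a median log2 difference of only 0.07 and 0.16. Some genes stand in more than 1 list.

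**Figure D4:**
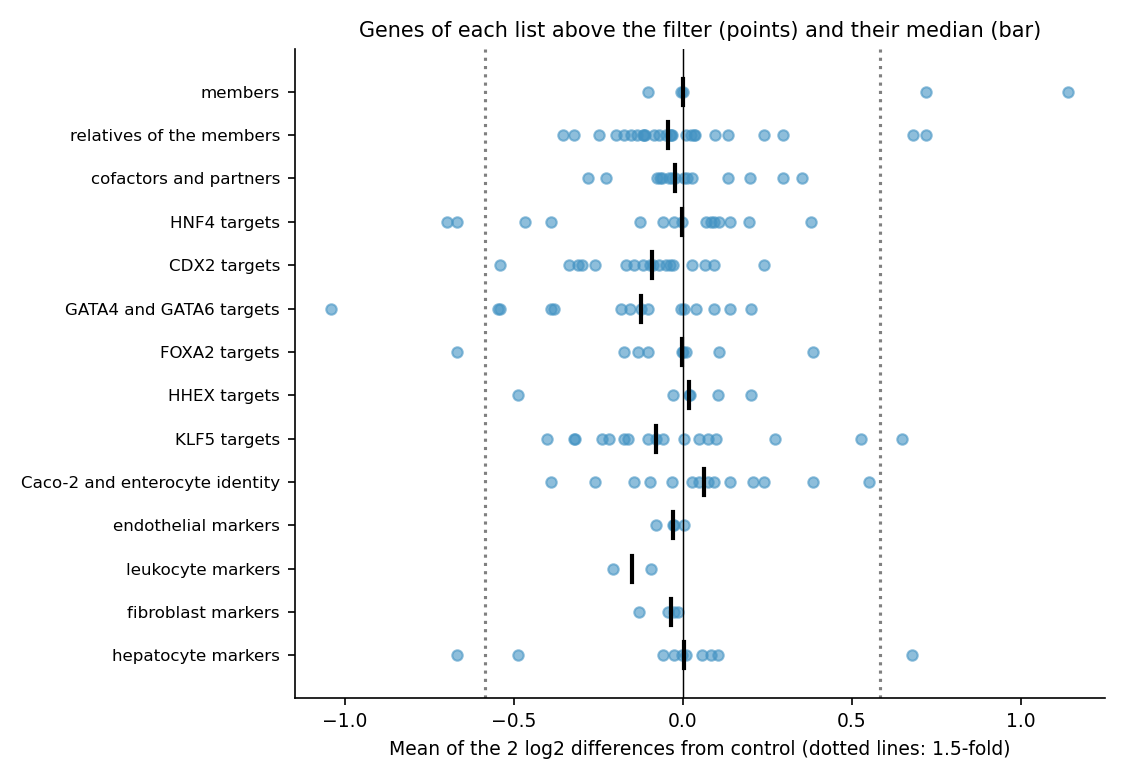
Mean of the 2 log2 differences from control (horizontal axis) for each gene above the filter in the 14 lists, 1 point per gene, with a bar at the median of each list and dotted lines at 1.5-fold. Beyond the lines lie HHEX, GATA6, KLF10, TCF7L2, TFF1, TM4SF4 and AHSG, and also TTR and CLDN1, which passed 1.5-fold in 1 line only. Each gene is read by its brightest probe set, and the other probe sets of TCF7L2 and CLDN1 had smaller median differences. The target lists of HHEX and KLF5 have medians of 0.03 and 0.00, and of -0.08 and -0.11, in lines 1 and 2.

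The identity of the cells was checked by markers. A summed intensity gives most weight to the brightest probe sets, and it includes markers below the filter where a list has them. All 14 genes of Caco-2 and enterocyte identity passed the filter, 0 reached the threshold, and their summed intensity in the hairpin lines was 107.1% and 106.4% of control. Its members went both ways. The epithelial adhesion gene EPCAM read 3930, 5602 and 5911 and CDH1 3799, 5033 and 4891, both above control in lines 1 and 2. The fatty acid binding protein gene FABP1 was below control in both, at 3729, 3027 and 2680, or 81.2% and 71.9%, and a second FABP1 probe set gave -0.35 and -0.50 on the log2 scale. HHEX is also a gene of endothelial and blood cells. Of 8 endothelial markers 4 passed the filter and 0 reached the threshold, with a summed intensity of 1417 in the control against 1330 and 1388 in lines 1 and 2. All 8 leukocyte markers with a probe set summed to 2937, 2591 and 2671, of which 2 passed the filter and 0 reached the threshold. The actin-bundling gene LCP1, at 1909, 1592 and 1722, made up most of that sum. Many of these markers were too dim to be followed, and the part of other cell types in the HHEX difference was not tested.

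Fibroblast markers summed to 1428, 1406 and 1424, with 0 of 4 past the threshold. Of 12 hepatocyte markers 10 passed and 1 was higher, the plasma protein gene AHSG at 2250, 3518 and 3693. Its members went both ways by sign, with 1 of those that passed (AHSG) above control in both lines and 3 below in both. Among the 3 were TTR, at 58.7% and 67.5% of control, and FGA, with log2 differences of -0.42 and -0.56. The summed intensity of the hepatocyte markers was 99.5% and 96.4% of control.

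The arrays carry 23 background control probe sets that differ in the number of G and C bases. Their log2 differences from control ran from -0.37 to 0.06 in line 1 and from -0.23 to 0.04 in line 2, with the lowest values at many G and C bases and the highest at few. HHEX and GATA6 lay above the highest of these values in both lines. Any gene past 1.5-fold in both lines would, so this is no check on either gene. FOXA2 and GATA4 lay within the range of the background probe sets in both lines. The part of base composition in the differences of any of these 4 genes was not tested.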

How the data were processed

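Intensities of 49395 probe sets in 3 Caco-2 cultures were used, 1 array per culture, with groups taken from the sample titles. The authors' deposited intensities are on a linear scale. RMA is named in the submitters' processing notes, and its version, settings and the scaling between arrays are not given in the sources used here. Background control probe sets read from 51.3 to 2307 in the control, so background appears to remain in the values, which would make folds too small. Intensities were converted to log2 with no further normalization. Probe sets were named by the platform annotation: 44988 had 1 gene symbol, 1832 several, 2473 none and 102 were array controls. The symbols of all 7 genes found matched RefSeq (GRCh38.p14) by gene identifier.

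Groups of 1 array allow no test, so a size rule of 1.5-fold in both lines was used. It was run on simulated arrays before use, with noise on every array of the size seen between lines 1 and 2 (SD 0.11). The log2 differences from control had a wider SD over all genes, 0.22 in each line. The simulation therefore does not show how the rule behaves at that spread. A larger deviation of the control array was not simulated. Named were all probe sets of the 8 genes, C12orf75, in each list the genes past the threshold or else up to 3 with the largest smaller difference of the same sign in both lines, and 3 nearest genes for HHEX and GATA6; the other GATA and KLF genes, CDX1, FOXA1 and FOXA3 were added as relatives after values were seen. The genes and lists were chosen with earlier results of these data known. Alternatives used limma 3.58.1 in R 4.3.3; the rest used Python 3.11.15 with numpy 2.4.6 and pandas 2.3.3. The number of arrays limits the precision.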

Additional observations from a re-analysis of the deposited data

Results flagged for a closer look

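For 3 of the 12 probe sets the lines lay on opposite sides of the control, each by a small amount, and the difference between the lines was not tested because each has 1 array. CDX2 (11731754_at) had log2 differences of 0.027 in line 1 and -0.040 in line 2. The brightest KLF5 probe set (11744572_a_at) had -0.038 and 0.041. The GATA4 probe set 11725540_a_at, below the intensity filter, had -0.015 and 0.028.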

How the results depend on the processing

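HHEX and GATA6 were both past 1.5-fold in both lines under quantile normalization, median centring, cyclic loess, normexp background correction, no filter, the mean of all probe sets, without probe sets ending in _s_at or _x_at, and with the 5th percentile of each array subtracted (chosen after seeing the data). At 2-fold only 1 of the 7 transcription factor genes with a probe set, HHEX, remained, among 8 higher and 4 lower genes in all. At 1.3-fold there were 602 higher and 106 lower genes. With the mean of all probe sets 44 genes were higher and 9 lower, in place of 154 and 18, and with the 5th percentile subtracted 283 and 36. That subtraction moved HHEX to 3.12-fold and 2.80-fold, since it removes a constant from a dim control value. GATA6 stayed between 1.504-fold and 1.61-fold in line 1 and between 1.67-fold and 1.75-fold in line 2 over 7 alternatives. KLF5 became 0.13 and 0.16 with the mean of its probe sets, and HNF4G changed sign in line 1 (-0.05). With the subtraction HNF4G moved from 0.09 and 0.10 to 0.44 and 0.42, and FOXA2 to -0.47 and -0.37, without reaching 1.5-fold. None of the 7 transcription factor genes with a probe set was lower by 1.5-fold in both lines under these settings. No paired analysis was possible because each group has 1 array. The dim probe sets of FOXA2, HNF4G and GATA4 allow no firm statement, and HHEX and GATA6 each rest on 1 probe set and 1 control array.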
